A study of Mus musculus with 21 samples.

Results

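The neurotrophic factor receptors described here were 9 genes, chosen by symbol from the 55400 genes of the count and FPKM tables: Ngfr, Ntrk2, Ntrk3, Ret, Gfra1, Gfra2, Gfra3, Met and Lifr. They were followed across 21 RNA-seq libraries in 7 groups of 3 biological replicates. All libraries came from wild-type C57BL/6 mouse embryonic stem cells that had been grown as embryoid bodies and directed towards spinal motor neurons (MNs) with retinoic acid and SAG, an agonist of the Sonic hedgehog pathway. DAPT, an inhibitor of Notch processing, was added to the cultures at days 4 and 5 to obtain hypaxial motor column MNs. The later groups share that agent whether or not they received anything else, and comparisons with cells collected at day 4 span its addition. At day 5 the medium was changed to one without retinoic acid and SAG, so the step from D5 to D6 spans that change. Stage cannot be told apart from these changes of medium. Untreated cells were collected at D4 (MN progenitors, pMN), at D4H8, which is 8 h later and holds pMN mixed with proneural cells (pnMN), at D5 (newborn MNs, nbMN) and at D6 (mature MNs, mMN). At D4H8, D5 and D6 a parallel group had received GSKJ4, an inhibitor of the Kdm6 H3K27 demethylases, for about a day before collection. The dose of GSKJ4 in these libraries and the vehicle of the untreated cells were not given in the sources used here, and each library was a bulk sample of whole cultures with no sorting.

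Motor neurons depend on factors supplied by muscle, glia and other neurons, and they sense them with several receptor families. Neurotrophins bind the Trk receptor tyrosine kinases and the shared receptor p75NTR, the product of Ngfr. Ligands of the GDNF family bind a GPI-anchored co-receptor of the GFRA family, which then engages the kinase Ret, whereas HGF acts through the kinase Met, and LIF, CNTF and cardiotrophin act through Lifr together with gp130.

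The libraries held between 14982115 and 34383842 counted reads, with a median of 16238435, and the deepest was an untreated D4H8 library. Summed over a list of 9 MN markers, the level was 57.8 to 95.8 CPM (counts scaled to the total of the library) at D4, 285 to 437 at D4H8, 930 to 1081 at D5 and 1887 to 2152 at D6. GSKJ4 moved the same sum to 63.2 to 186 at D4H8 and to 671 to 889 at D5, while the range at D6 was 1759 to 2203. The 8 markers of MN progenitors summed to 373 to 633 CPM at D4, 692 to 962 at D4H8, 480 to 632 at D5 and 442 to 731 at D6 in untreated libraries, so that this sum did not separate D4 from D6, and to 100 to 252 CPM in treated D4H8 libraries. Within it Olig2 was at 96.1 to 142 CPM at D4 and 1.29 to 4.21 CPM at D6, whereas Nkx6-1 was at 67.3 to 109 CPM at D4 and 329 to 598 CPM at D6. In bulk samples such as these, fewer cells of a type and less RNA per cell cannot be told apart, and this holds for every receptor change given here. Counts of whole genes also do not separate the kinase forms of Ntrk2 and Ntrk3 from their truncated forms.

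In GRCm38 coordinates, Ngfr lies at chr11:95568818-95587735 on the minus strand, Ntrk2 at chr13:58806569-59133970 on the plus strand and Ret at chr6:118151745-118197718 on the minus strand. Met lies on the plus strand of chromosome 6 at chr6:17463800-17573980. The RefSeq promoter table held entries for 5 of the 9 receptors (Ngfr, Ntrk2, Gfra1, Met and Lifr). Shown here are the stretches that precede both the RefSeq start and the annotated gene for the neurotrophin receptors Ngfr and Ntrk2, which rose together from D4H8 to D6. The Ngfr stretch is 213 bases at chr11:95587736-95587948 (minus strand) and the Ntrk2 stretch is 250 bases at chr13:58806319-58806568 (plus strand), both in GRCm38.p6 and written 5′ to 3′, with capitals for an E-box hexamer CAGATG or its reverse complement.
Ngfr: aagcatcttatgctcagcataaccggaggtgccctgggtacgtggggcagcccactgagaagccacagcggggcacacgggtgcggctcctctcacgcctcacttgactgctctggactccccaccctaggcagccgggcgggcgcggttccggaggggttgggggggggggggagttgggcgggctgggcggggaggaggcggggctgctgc
Ntrk2: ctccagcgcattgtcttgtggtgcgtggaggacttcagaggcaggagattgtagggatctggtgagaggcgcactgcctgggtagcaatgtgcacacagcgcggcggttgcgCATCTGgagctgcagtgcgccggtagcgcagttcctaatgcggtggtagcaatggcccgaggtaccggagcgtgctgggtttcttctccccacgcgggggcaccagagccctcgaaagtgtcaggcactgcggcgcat

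Both strands of the 250 bases before each RefSeq start were searched for the E-box hexamers CAGCTG and, as a second kind, CAGATG, which basic helix-loop-helix factors bind, for the homeodomain core TAATTA, and for ATCGAT or, in the same role, ATTGAT, which Onecut factors bind. CAGCTG was found in the Ngfr window, inside the annotated first exon and so outside the stretch printed, and also in the Gfra1 window and in 1 of the 2 Lifr windows, against 13% of all 32851 promoter windows. The Gfra1 window lay wholly within the annotated gene, and that Lifr window wholly within an annotated intron. The single CATCTG of Ntrk2 is a motif held by 14.4% of windows. The Met window held none of the 5, and none of the receptors' windows held TAATTA (4.84% of all windows), ATCGAT (0.728%) or ATTGAT (6.72%). These matches describe letters only.

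**Figure D1:**
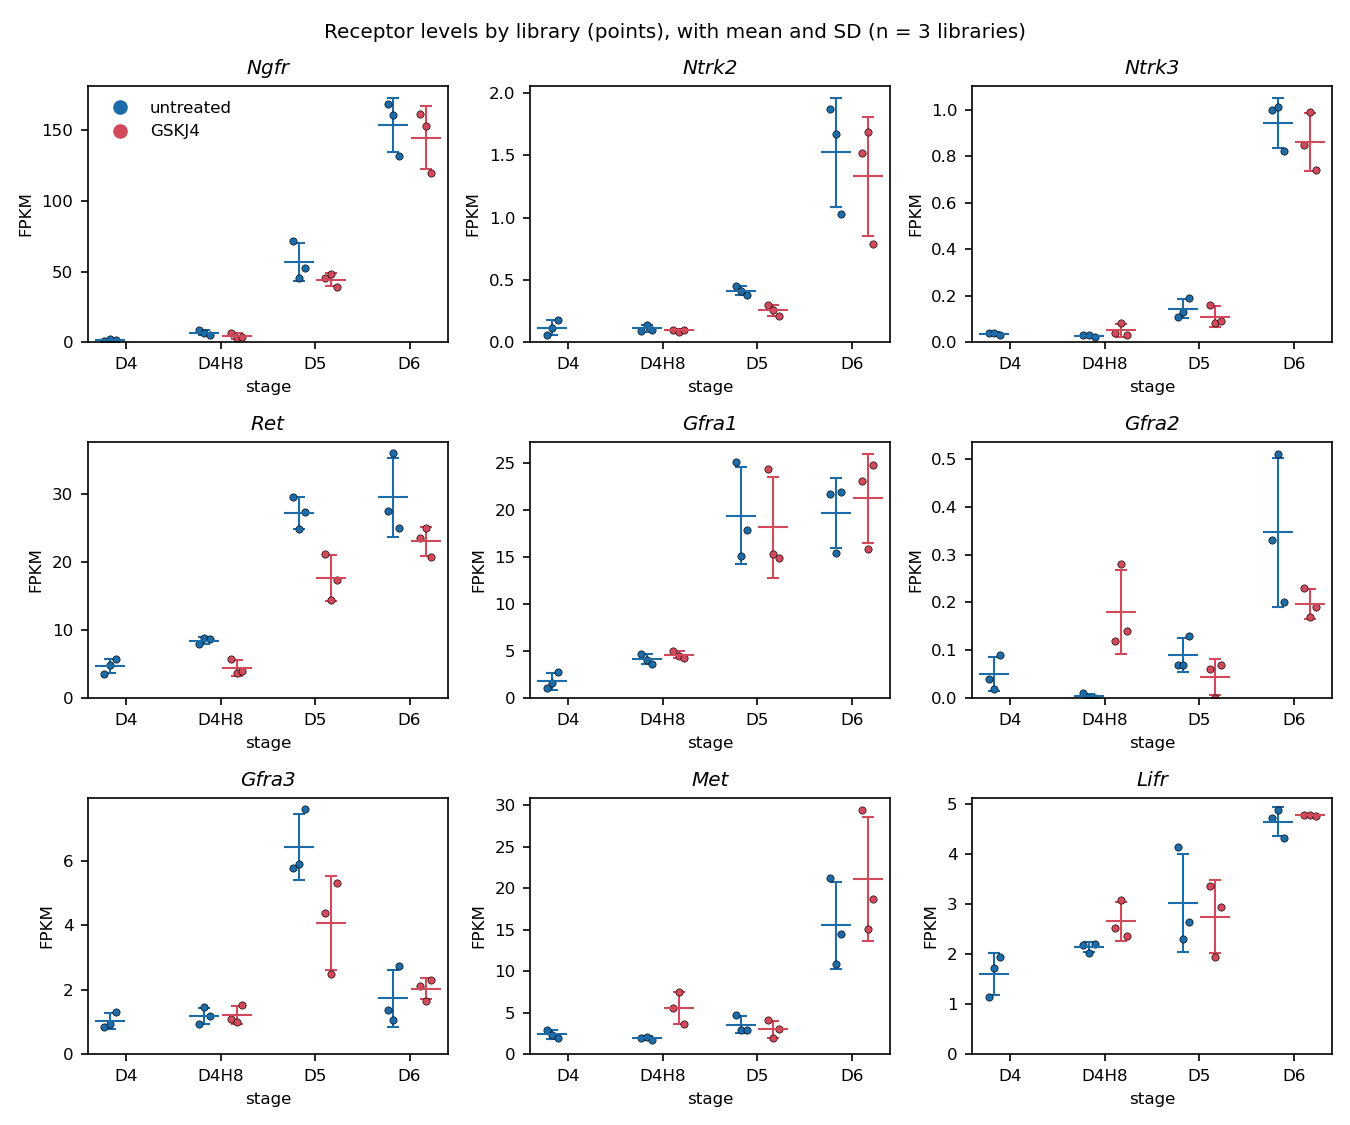
FPKM (counts scaled by exonic length and by the counted reads of the library) of each receptor by stage, with 1 point per library, the mean as a horizontal bar and the SD as the error bar (n = 3), untreated in blue and GSKJ4-treated in red. Ngfr reached 132 to 168 FPKM in untreated D6 libraries, Gfra3 was highest at D5, and treated Met libraries lay above all untreated ones at D4H8.

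Across the untreated stages, the receptors appeared in waves. FPKM divides counts by exonic length and by counted reads, so an order of genes by FPKM depends on the length used for each. The mean level in FPKM was led at D4 by Ret, at 4.71 ± 1.07 FPKM (SD, n = 3), followed by Met at 2.37 ± 0.516. Met, Gfra1, Ngfr and Lifr followed in that order, and each overlapped the next one's libraries. By D6 the order was Ngfr at 154 ± 19.1 FPKM, Ret at 29.5 ± 5.77, Gfra1 at 19.7 ± 3.70 and Met at 15.5 ± 5.29, with the libraries of Gfra1 and Met overlapping each other. Lifr came next at 4.65 ± 0.288 FPKM, then Gfra3 at 1.73 ± 0.894 and Ntrk2 at 1.52 ± 0.439, which overlapped, then Ntrk3 at 0.943 ± 0.107 and Gfra2 at 0.347 ± 0.156. The exonic lengths used were 30170 bases for Ntrk3, 19292 for Ntrk2 and 1997 for Gfra3. In CPM, which leaves length out, the D6 means were 28.4 for Ntrk3, 29.4 for Ntrk2 and 3.46 for Gfra3. Between D4 and D6 all 9 receptors were raised at an adjusted p under 0.05 (edgeR quasi-likelihood test with Benjamini-Hochberg adjustment over all 17519 genes tested), against 32.9% of all tested genes raised and 31% lowered. Gfra2 is in that count, although it passed the filter on low counts only through its D6 libraries. The median log2 fold change of the 9 was 2.93 and that of all tested genes was -0.04.

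Ngfr, the receptor shared by the neurotrophins, showed the steepest course. Its level was 1.11, 1.94 and 1.79 FPKM in the D4 libraries, 8.28, 6.36 and 4.90 at D4H8, 71.6, 45.5 and 52.8 at D5 and 168, 161 and 132 at D6. No library of any stage overlapped those of the stage before. The log2 fold change was 2.00 ± 0.252 (SE) from D4 to D4H8 (edgeR adjusted p = 0.000251), 3.11 ± 0.243 from D4H8 to D5 (adjusted p = 7.84e-07) and 1.55 ± 0.226 from D5 to D6 (adjusted p = 0.000173). All of these stayed past the threshold in the 19 alternative fits of each step. The genes whose log2 CPM over the 21 libraries was most like that of Ngfr among 13523 genes were Crmp1, a collapsin response mediator of growing axons (Pearson r = 0.996), and Apc2, a neuronal relative of the Apc tumour suppressor (r = 0.996). Such coefficients describe libraries that share the stages and carry no test.

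The Trk receptors were late. Ntrk2, the receptor of BDNF and neurotrophin 4, was at 0.06, 0.11 and 0.18 FPKM at D4, 0.09, 0.14 and 0.10 at D4H8, 0.45, 0.41 and 0.38 at D5 and 1.87, 1.67 and 1.03 at D6. The D4 and D4H8 libraries overlapped, and those of D5 and D6 lay above all earlier ones. Its log2 fold change was 1.91 ± 0.32 from D4H8 to D5 (edgeR adjusted p = 0.000531) and 2.00 ± 0.298 from D5 to D6 (adjusted p = 0.000213). Ntrk3, the receptor of neurotrophin 3, was at 0.04, 0.04 and 0.03 FPKM at D4, 0.03, 0.03 and 0.02 at D4H8, 0.11, 0.13 and 0.19 at D5 and 1.00, 1.01 and 0.82 at D6. The D6 libraries stood well above all others. It rose by 2.21 ± 0.271 on the log2 scale from D4H8 to D5 (edgeR adjusted p = 3.97e-05) and by 2.86 ± 0.243 from D5 to D6 (adjusted p = 2.47e-06). The patterns closest to Ntrk2 were those of Magi2 (r = 0.983) and Pak1 (r = 0.980), and those closest to Ntrk3 were Slc5a7, the choline transporter of cholinergic neurons (r = 0.983), and Mtus2 (r = 0.982).

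Ret and Gfra1, the kinase and the co-receptor through which GDNF acts, rose early and then levelled. Ret was at 3.58, 4.84 and 5.71 FPKM at D4, 7.87, 8.77 and 8.63 at D4H8, 29.5, 24.8 and 27.3 at D5 and 27.5, 36.0 and 24.95 at D6. The libraries separated at each step up to D5, and those of D5 and D6 overlapped. The log2 fold changes of Ret were 0.80 ± 0.154 (edgeR adjusted p = 0.0079), 1.70 ± 0.155 (adjusted p = 2.67e-06) and 0.23 ± 0.15 (adjusted p = 0.265) in the order of the steps. Gfra1 was at 1.04, 1.58 and 2.76 FPKM at D4, 4.73, 4.08 and 3.61 at D4H8, 25.2, 15.2 and 17.9 at D5 and 21.8, 15.4 and 22.0 at D6. As for Ret, the D5 and D6 libraries overlapped. Its log2 fold changes were 1.2 ± 0.283 (edgeR adjusted p = 0.0265), 2.23 ± 0.277 (adjusted p = 4.38e-05) and 0.13 ± 0.262 (adjusted p = 0.725). The first of these lost its call without either of the first 2 D4 or the first 2 D4H8 replicates, with fold changes of 0.98 to 1.62 on the log2 scale when each of the 12 libraries in turn was left out and an adjusted p of up to 0.138. Ret was most like Spock2 (r = 0.978) and Pex5l (r = 0.974), and Gfra1 was most like Ebf1 (r = 0.981), a transcription factor of early neuronal differentiation, and Chrna5 (r = 0.980), a nicotinic receptor subunit.

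The other GDNF-family co-receptors ran differently. Gfra3, which binds artemin and is best known from sensory and sympathetic neurons, was at 0.84, 0.94 and 1.30 FPKM at D4, 0.93, 1.45 and 1.17 at D4H8, 5.78, 5.90 and 7.62 at D5 and 1.38, 1.07 and 2.75 at D6. The D5 libraries stood above every library of the other untreated stages. The gene rose by 2.46 ± 0.321 on the log2 scale from D4H8 to D5 (edgeR adjusted p = 6.87e-05) and its log2 fold change from D5 to D6 was -1.78 ± 0.313 (adjusted p = 0.000708), which made it the only one of the 9 to be lowered at any untreated step. From D4 to D6 it was raised by 0.83 ± 0.327 (edgeR adjusted p = 0.039), although the groups overlapped, and that call was lost without D4 replicate 1 or 2, D5 replicate 2 or 3, or D6 replicate 3, with values over all omissions of 0.37 to 1.09 and an adjusted p of up to 0.297. Its closest patterns were weaker than those of the other receptors, with r = 0.912 for Snx18 and r = 0.901 for Cd300lf.

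Of a list of 10 markers of neural crest, sensory neurons and Schwann cells, 1 is not reported here, and the other 9 summed to 18.5 to 28.9 CPM at D5, 20.4 to 31.9 at D4H8 and 14.2 to 25.4 at D6. Sox10, which defines neural crest and glia, stood at 0.19 to 0.541 CPM at D5.

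**Figure D2:**
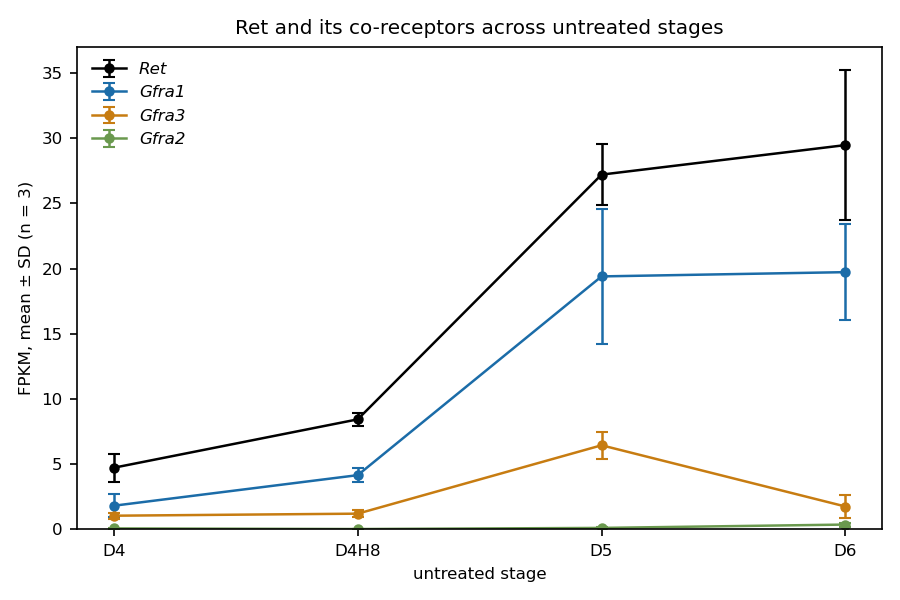
Mean FPKM with SD (n = 3) of Ret, Gfra1, Gfra2 and Gfra3 at the untreated stages. Ret and Gfra1 stayed level from D5 to D6 within their spread, whereas Gfra3 peaked at 6.43 FPKM at D5.

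Gfra2, the neurturin co-receptor, was the least abundant of the 9 at D6 and was counted by few reads at all stages: 3, 1 and 5 at D4, 1, 0 and 0 at D4H8, 4, 4 and 7 at D5 and 19, 29 and 11 at D6. The D6 libraries lay above all earlier untreated ones. From D5 to D6 it rose by 2.06 ± 0.582 on the log2 scale (edgeR adjusted p = 0.0144), a call that was lost without D5 replicate 2 or D6 replicate 2, where values over all omissions were 1.69 to 2.36 and the adjusted p reached 0.0784. Among the untreated libraries Gfra2 passed the filter on low counts only through D6, so its calls at D6 are not independent of that filter. From D4H8 to D5 the call was also raised (adjusted p = 0.00828), but with 1 read in all at D4H8 the size is set only loosely: the ratio of summed counts per counted read was 20.6, with an exact 95% interval of 3.17 to 866 that covers counting error alone.

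Met, the HGF receptor, was at 2.94, 2.25 and 1.93 FPKM at D4, 1.98, 2.1 and 1.72 at D4H8, 4.73, 2.93 and 2.94 at D5 and 21.2, 10.8 and 14.4 at D6. The 3 earlier stages were all under 5 FPKM, and the D6 libraries stood above them by a wide margin. The log2 fold change from D5 to D6 was 2.25 ± 0.286 (edgeR adjusted p = 5.86e-05). The smaller rise from D4H8 to D5 (0.88 ± 0.284, adjusted p = 0.0336) was lost without any 1 of the 3 D4H8 libraries or D5 replicate 1, with values of 0.58 to 0.95 over the omissions and an adjusted p of up to 0.175. Met was most like Sptbn1 (r = 0.953) and Camk2d (r = 0.942).

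Lifr, the signalling receptor of LIF and CNTF, changed in small steps. It was at 1.14, 1.73 and 1.94 FPKM at D4, 2.19, 2.03 and 2.20 at D4H8, 4.15, 2.31 and 2.64 at D5 and 4.73, 4.89 and 4.33 at D6. Each stage lay above the one before, though by little. Only the step from D5 to D6 passed the test (0.73 ± 0.209 on the log2 scale, edgeR adjusted p = 0.0161), and it was lost without D5 replicate 2 or 3 or D6 replicate 1, with values over all omissions of 0.54 to 1.05 and an adjusted p of up to 0.0913. The patterns nearest to Lifr were Ap2b1 (r = 0.956) and Herc2 (r = 0.956).

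**Figure D3:**
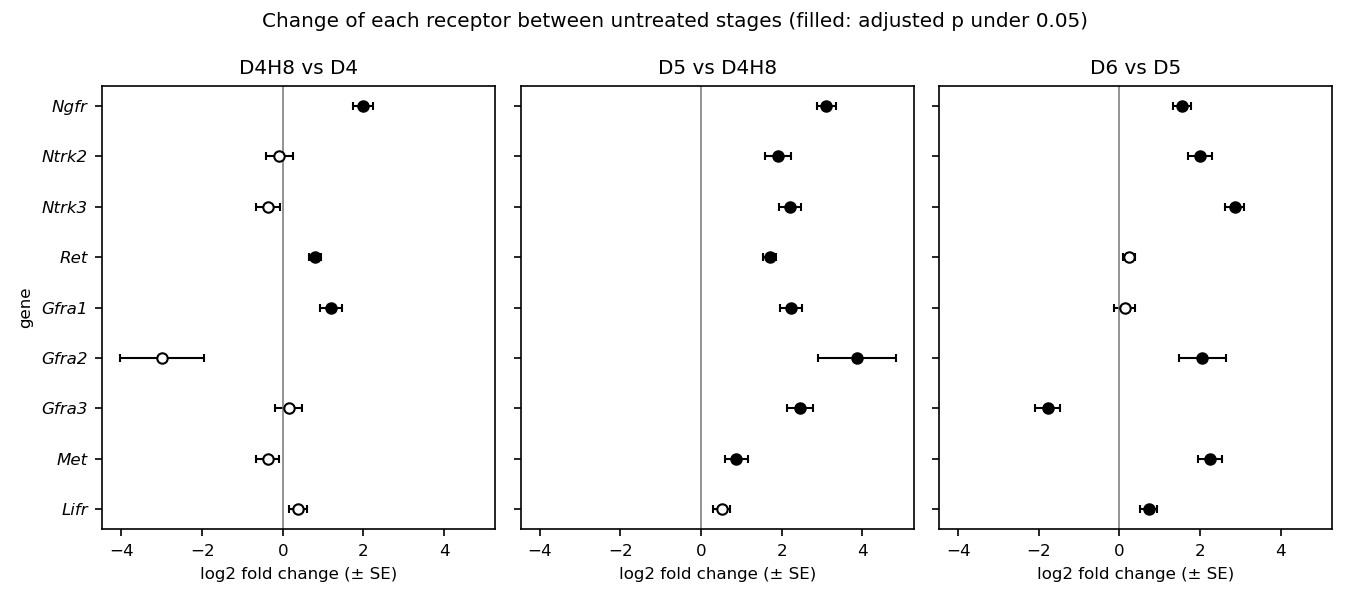
Log2 fold change of each receptor with its SE at the 3 untreated steps, from the edgeR fit of the 12 untreated libraries, with filled points for an adjusted p under 0.05. All points lie right of 0 for D5 against D4H8, and Gfra3 is the filled point left of 0 for D6 against D5. The Gfra2 points that involve D4H8 rest on 1 read there.

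Counted by step, 3 of the 9 receptors rose from D4 to D4H8 (Ngfr, Gfra1 and Ret) and 0 fell, when 4.06% of the 17519 genes rose and 0.32% fell. From D4H8 to D5, 8 rose and 0 fell, against 17.2% and 10.5% of genes. From D5 to D6, 6 rose and 1 fell, against 19.2% and 15.1%. Gfra2 is among the risers of the last 2 steps, having passed the filter on low counts only through D6. The median log2 fold changes of the 9 were 0.15, 2.21 and 1.55 in that order, and those of all tested genes were -0.02, 0.01 and -0.02. With Gfra2 placed at its ratio of summed counts, the medians were the same to 2 decimals at these steps.

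Other genes of these pathways, taken from 4 lists of 77 genes, moved less uniformly. Of 20 further receptors and co-receptors, 19 could be tested, and 15 were raised and 0 lowered from D4 to D6, beside 32.9% and 31% of all tested genes. Ncam1, an adhesion molecule that can also bind GDNF, rose by 5.63 ± 0.179 on the log2 scale (edgeR adjusted p = 7.34e-11), and Sdc3, a heparan sulfate proteoglycan, by 3.91 ± 0.19 (adjusted p = 1.02e-09). Kidins220, a scaffold bound by Trk receptors, rose by 3.08 ± 0.154 (adjusted p = 1.32e-09). Between D5 and D6, Lingo1 and Sorcs1, a partner of Nogo receptor complexes and a sortilin-family receptor, rose by 3.89 ± 0.23 (edgeR adjusted p = 2.71e-07) and 4.62 ± 0.296 (adjusted p = 4.04e-07). Cntfr, which binds CNTF and pairs with Lifr, went from 22.0 ± 4.29 FPKM at D4 to 55.5 ± 6.64 at D6 (log2 fold change 1.42 ± 0.152, adjusted p = 2.1e-06). The gp130 gene Il6st was at 11.4 ± 0.96 FPKM at D4 and 9.68 ± 0.741 at D6, with a log2 fold change of -0.17 ± 0.155 (edgeR adjusted p = 0.362), and the persephin co-receptor Gfra4 was at 0.597 ± 0.227 and 1.04 ± 0.157 FPKM (0.88 ± 0.378, adjusted p = 0.0561).

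Among 15 ligand genes, 11 were tested, and 4 were raised and 5 lowered from D4 to D6, when 32.9% of all tested genes were raised and 31% lowered. Ntf3, which encodes neurotrophin 3, the ligand of the Ntrk3 product, had 0.287 ± 0.137 FPKM at D4 and 16.1 ± 4.42 at D6 and rose by 5.84 ± 0.385 on the log2 scale (edgeR adjusted p = 1.66e-08). Lif, which acts through Lifr, changed by -2.21 ± 0.344 (edgeR adjusted p = 6.85e-05). Gdnf and Bdnf, named here after their values were seen, had means of 0.417 and 0.367 FPKM at D6, and Hgf had no count in any of the 3 untreated D6 libraries. Of 28 adaptors, all tested, 18 were raised and 4 lowered against the same shares, with Pik3r1, a regulatory subunit of PI3-kinase, at 3.26 ± 0.128 (edgeR adjusted p = 1.97e-10), Gab2 at 3.56 ± 0.16 (adjusted p = 5.86e-10) and the Ret and Trk adaptor Dok5 at 3.88 ± 0.24 (adjusted p = 8.8e-09). Of 14 response and feedback genes, 8 were raised and 3 lowered against those shares, with Vgf, a secreted peptide precursor induced by neurotrophins, at 5.89 ± 0.435 (adjusted p = 5.34e-08), the phosphatase Dusp4 at 4.27 ± 0.23 (adjusted p = 2.48e-09) and Spred1 at -0.70 ± 0.112 (adjusted p = 8.46e-05).

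GSKJ4 was compared with untreated cells at each of 3 stages, to ask how the receptors responded when H3K27 demethylases were inhibited. At D4H8, 1 receptor was raised (Met) and 1 lowered (Ret) of the 8 that passed the filter on low counts, against 2.11% of the 16269 tested genes raised and 1.85% lowered. Met was at 5.60, 7.49 and 3.60 FPKM in the treated libraries, above the untreated 1.98, 2.1 and 1.72 and above all D4 libraries. Its log2 fold change was 1.51 ± 0.305, a 2.85-fold difference (edgeR adjusted p = 0.0331). Ret was at 5.70, 3.64 and 3.91 FPKM, below all untreated D4H8 libraries and within the range of D4. Its log2 fold change was -0.97 ± 0.203 (edgeR adjusted p = 0.0366).

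Both calls were close to the threshold in this edgeR fit, and each was kept in 9 of 13 alternative fits. Without any 1 of the 3 untreated D4H8 libraries neither was called, with Met at 1.42 to 1.56 and Ret at -1.0 to -0.95 on the log2 scale and adjusted p-values of 0.122 to 0.157 and 0.121 to 0.166. Met also lost its call without treated replicate 1 (1.53, edgeR adjusted p = 0.0531) and Ret without treated replicate 3 (-0.86, adjusted p = 0.0712). A list of 8 feeder fibroblast markers, 0 of which were absent from the libraries, summed to 95.9 to 155 CPM in untreated and 157 to 269 CPM in treated D4H8 libraries, and 4 endothelial markers to 8.87 to 22.5 and 20.3 to 31.5 CPM. The 5 pluripotency markers summed to 52.9 to 246 CPM in untreated and 127 to 302 CPM in treated D4H8 libraries. Of the markers tested, 0 of 7 fibroblast, 0 of 4 endothelial and 0 of 5 pluripotency genes were called. Among all tested genes, 2.11% were raised and 1.85% lowered. The part of any such cells in the rise of Met was not tested, nor was that of the lower MN and progenitor marker sums in the fall of Ret.

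The other receptors did not pass the test at D4H8. Gfra1, the partner of Ret, was at 5.04, 4.49 and 4.32 FPKM with GSKJ4 and 4.73, 4.08 and 3.61 without, and its log2 fold change of 0.12 had a 95% interval of -0.35 to 0.59. Ngfr was at 6.39, 3.02 and 3.29 FPKM with GSKJ4, overlapping the untreated libraries, with a log2 fold change of -0.68 (interval -1.41 to 0.06). Lifr was higher in every treated library (2.52, 3.09 and 2.36 FPKM) than in every untreated one, with a log2 fold change of 0.29 (interval -0.20 to 0.77). For 3 of the 8 receptors tested (Met, Lifr and Ret) the groups did not overlap, as for 32.9% of all genes. Gfra2 was below the filter and was not tested: its treated libraries held 7, 17 and 8 reads against 1, 0 and 0, a ratio of summed counts per counted read of 42.3 with an exact 95% interval of 7.06 to 1720 that covers counting error alone. The log2 fold changes of the remaining 3 were -0.30 for Ntrk2, 0.66 for Ntrk3 and close to 0 for Gfra3, each with overlapping groups. With no filter, or in a single fit over all 21 libraries, Gfra2 was called raised as well (edgeR adjusted p = 0.00297 and 0.00512).

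At D5 no receptor passed the edgeR threshold with GSKJ4, as for 0.00613% of the 16309 genes tested, that is 1 gene. Ret and Ntrk2 had an unadjusted p under 0.05, as did 767 genes in all, DESeq2 called 0 of the receptors, and edgeR with no filter called Ret alone. Ret was at 21.2, 14.4 and 17.3 FPKM with GSKJ4, below the untreated 29.5, 24.8 and 27.3, with a log2 fold change of -0.66 ± 0.182 (edgeR adjusted p = 0.798, and 0.0383 with no filter). Ntrk2 was at 0.30, 0.26 and 0.21 FPKM against 0.45, 0.41 and 0.38 (log2 fold change -0.73 ± 0.322, edgeR adjusted p = 0.976), and Gfra3 at 4.40, 2.49 and 5.33 against 5.78, 5.90 and 7.62 (-0.70 ± 0.32, adjusted p = 0.976). All treated libraries of these 3 receptors lay below all untreated ones, as the groups did not overlap in either direction for 11.6% of genes. Met overlapped between the groups, at 4.05, 1.97 and 2.98 FPKM with GSKJ4, and its log2 fold change was -0.28 with an interval of -0.98 to 0.43. Gfra2 was again below the filter, with 4, 0 and 4 reads against 4, 4 and 7. The MN marker sum was also below the untreated range in all treated D5 libraries, and its part in these values was not tested.

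**Figure D4:**
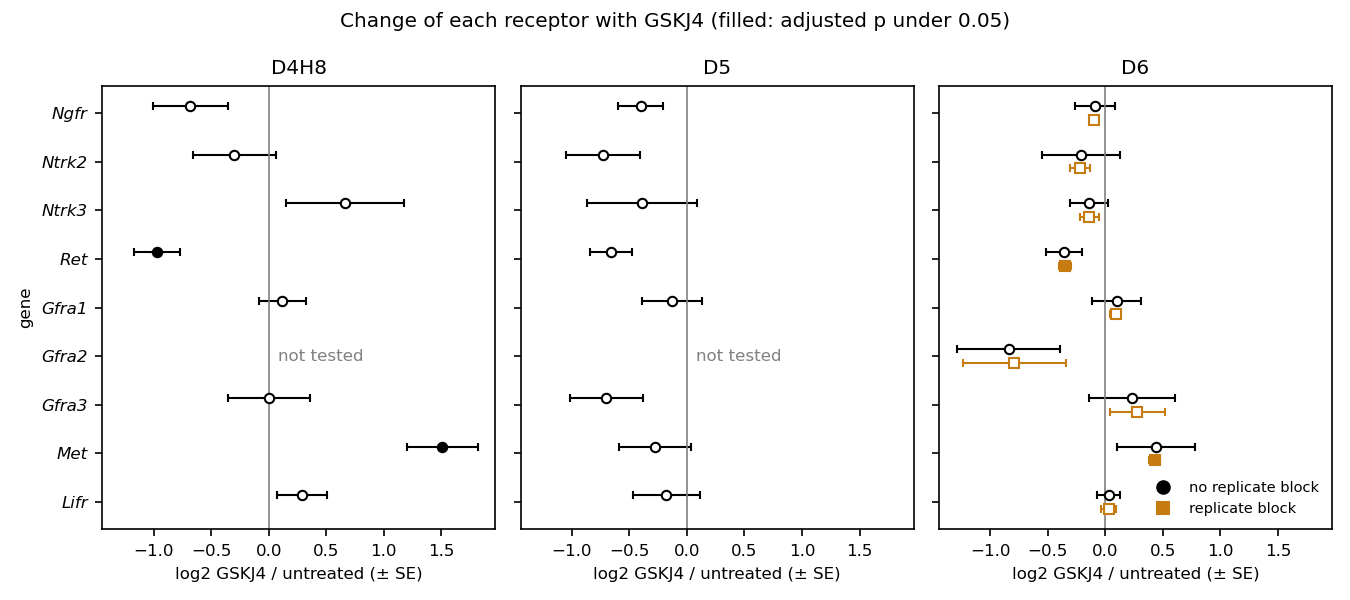
Log2 fold change of each receptor with GSKJ4, with its SE, at D4H8, D5 and D6, with filled symbols for an adjusted p under 0.05; orange squares at D6 are from the fit with the replicate number as a block. Met at 1.51 and Ret at -0.97 are the filled points at D4H8, and at D6 the same genes pass only with the block.

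At D6 no receptor passed the edgeR threshold either, as for 0% of the 16301 genes tested. At an unadjusted p under 0.05 there were 0 receptors and 222 genes, and DESeq2 called 0 receptors. The untreated and treated D6 libraries with the same replicate number deviated together, with correlations of 0.663, 0.316 and 0.446 over 18349 genes. Between numbers 2 and 3 the correlations were 0.187 and 0.148, and between number 1 and the others -0.491 to -0.346. The labels do not say whether same-numbered libraries share a culture. The fit with the replicate number as a block is given here because of these correlations, and its calls rest on that pairing. With that replicate block Met was raised by 0.43 ± 0.0465 on the log2 scale (edgeR adjusted p = 1.95e-05) and Ret was lowered, at -0.35 ± 0.0525 (adjusted p = 0.000652), when 0.294% of genes were raised and 1.28% lowered. Met was at 29.5, 15.1 and 18.6 FPKM in treated and 21.2, 10.8 and 14.4 in untreated libraries, in replicate order. The groups overlapped, but each treated library was above the untreated one of its number, by 0.37 to 0.48 on the log2 scale. Ret was at 23.4, 24.93 and 20.7 FPKM against 27.5, 36.0 and 24.95, again lower in 3 of 3 pairs. It was the only receptor whose groups did not overlap, by a narrow margin, as for 5.3% of genes. Without the block the changes were 0.44 ± 0.337 for Met and -0.36 ± 0.157 for Ret, each with an adjusted p of 1, and those of the other 7 receptors ran from -0.84 for Gfra2 to 0.23 for Gfra3.

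**Figure D5:**
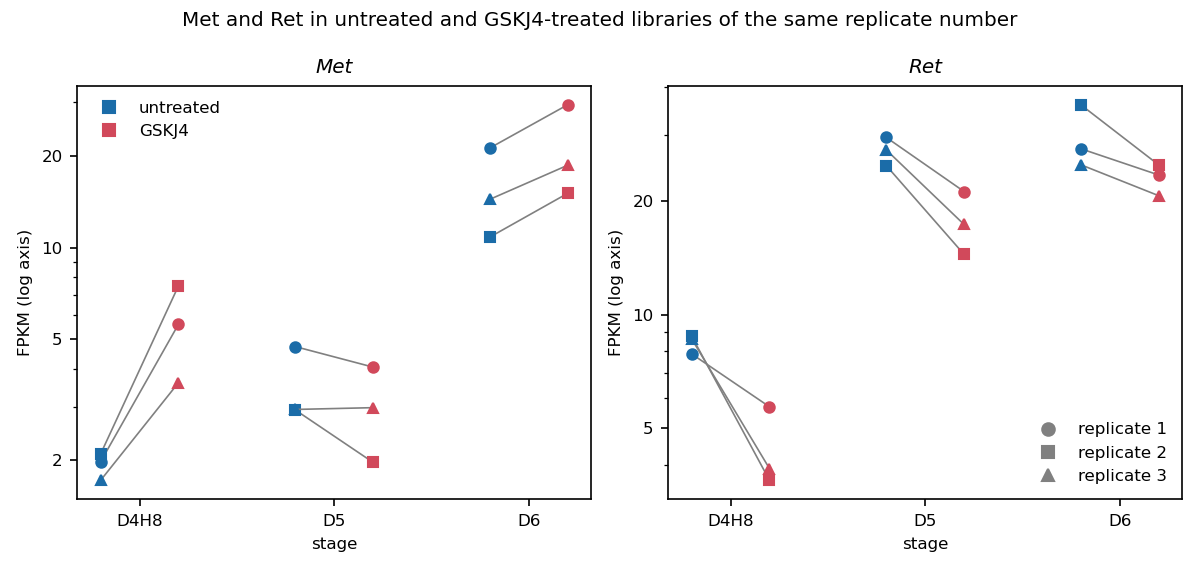
FPKM on a log axis of Met and Ret, with grey lines joining the untreated (blue) and GSKJ4-treated (red) libraries of the same replicate number and 1 symbol per number. Met is higher with GSKJ4 in 3 of 3 pairs at D4H8 and D6 and in 1 of 3 at D5, and Ret is lower in 3 of 3 pairs at each stage. Same-numbered libraries deviated together in every pair only at D6, so at D4H8 and D5 the pairs are matched by number alone.

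Since treated Ret libraries lay below all untreated ones at each stage and those of Gfra1 did not, the ratio of Gfra1 to Ret in FPKM was set out for each library. That choice was made after the values were seen. With GSKJ4 it was 0.884, 1.23 and 1.10 at D4H8, against 0.601, 0.465 and 0.418 without. At D5 it was 1.15, 1.06 and 0.857 against 0.853, 0.611 and 0.654, and at D6 0.984, 0.636 and 1.2 against 0.791, 0.430 and 0.880. Every treated library lay above every untreated one at D4H8 and D5, at D5 only narrowly (0.857 against 0.853). At D6 the groups overlapped, and the ratio was higher in 3 of 3 pairs of the same number. Numbers are not used as pairs for this ratio at D4H8 and D5, where same-numbered libraries did not all deviate together. How often ratios of other genes separate in this way was not counted. No test was run on a ratio chosen in this way.

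Differences between the stages in the response to GSKJ4 were tested in 1 fit over 18 libraries. For D5 against D4H8, 0 receptors passed, as for 0.249% of the 18103 genes in either direction. An unadjusted p under 0.05 was found for 2 receptors (Met and Gfra2) and for 1817 of the 18103 genes, and Gfra2 had 1 read in all at untreated D4H8. The response of Met at D5 minus that at D4H8 was -1.80 ± 0.52 on the log2 scale (edgeR adjusted p = 0.204), and it passed by DESeq2 (-1.82, adjusted p = 0.0449) and with the replicate block (-1.82, adjusted p = 0.0394). Over the 24 alternative fits by edgeR or DESeq2, its adjusted p was under 0.05 in 3 and reached 0.487. Same-numbered libraries did not all deviate together at these 2 stages. For D6 against D4H8, 1 receptor passed (Gfra2), as for 0.735% of genes, with an adjusted p of 0.044. Its counts at D4H8 were those given above, and at D6 they were 13, 9 and 11 with GSKJ4 against 19, 29 and 11 without. In the fit of D4H8 alone Gfra2 was below the filter on low counts. For D6 against D5, 0 receptors and 0 genes passed, and 0 receptors and 358 genes had an unadjusted p under 0.05, with 0 receptors called by DESeq2.

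In the lists of pathway genes, GSKJ4 at D4H8 raised 1 of 9 tested ligands, 1 of 18 further receptors and 1 of 28 adaptors and lowered 1 adaptor and 1 of 14 response genes. Few were called, as among all genes, of which 2.11% were raised and 1.85% lowered, and the 1 gene called at D5 was on none of the lists. Lif, a ligand of the Lifr product, rose by 1.78 ± 0.306 on the log2 scale, from 1.45 ± 0.164 to 5.18 ± 2.12 FPKM (edgeR adjusted p = 0.0237), the interleukin 6 receptor gene Il6ra by 2.18 ± 0.452 (adjusted p = 0.0362) and Stat3, the transcription factor downstream of gp130, by 0.95 ± 0.183 (adjusted p = 0.0288). Il6st was at 20.5 ± 5.00 FPKM with and 11.3 ± 0.56 without GSKJ4 (log2 fold change 0.84 ± 0.232, adjusted p = 0.071). The lowered genes were Grb10, at -0.82 ± 0.192 (edgeR adjusted p = 0.0498), and Dusp4, at -0.93 ± 0.212 (adjusted p = 0.0458). The list medians at D4H8 were 0.42 for the ligands, 0.49 for the further receptors, 0.25 for the adaptors and 0.47 for the response genes, beside 0.02 for all tested genes.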

How the data were processed

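Polyadenylated RNA from 21 libraries (7 groups of 3) was sequenced by the authors, who trimmed, aligned (mm10, Ensembl 102) and counted the reads with HTSeq. The strand setting is not given in the sources used here. The deposited counts are raw reads per gene, and the deposited FPKM values were made by the authors from those counts, the deposited exonic lengths in bases and the counted reads per library. Tests used the counts in edgeR 4.0.16 (R 4.3.3): quasi-likelihood fits after TMM scaling and filterByExpr (minimum count of 10), with Benjamini-Hochberg adjustment over all genes tested and a threshold of 0.05. The stage steps shared a fit of the 12 untreated libraries, each GSKJ4 comparison used its own 6 libraries, and the differences between stages used 18. Adjacent steps share libraries. SE is the fold change divided by the root of its F statistic. DESeq2 1.42.0, 2 other scalings, 2 filters, other sample sets, the replicate block and the omission of each library were the alternatives. Methods were tested on simulated data first.

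Named were all 9 receptors, the 2 genes most like each in log2 CPM (prior count of 2, mean of at least 1 CPM, so none for Gfra2), up to 3 called genes with the lowest adjusted p per list and comparison (the text gives the leading ones), and Gfra4, Cntfr and Il6st. Some genes that the rule names are not reported here. The receptors and lists were chosen with earlier results of these data known. Same-numbered libraries correlated above 0.1 in every pair for untreated and treated D6 cells and not for D4H8 (lowest 0.0731) or D5 (0.0384). Duplicate libraries were looked for and 0 columns were left unused. Promoters were read from the RefSeq table of GRCm38.p6 and gene positions from GENCODE M21.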

Additional observations from a re-analysis of the deposited data

Results flagged for a closer look

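The change of Gfra2 with GSKJ4 at D6 minus its change at D4H8 was picked out because the test of the difference between those stages passed the threshold, at -5.71 ± 1.27 on the log2 scale (edgeR adjusted p = 0.044). It rests on 1, 0 and 0 reads in the untreated D4H8 libraries, so the fitted size depends on the prior count and is no bound. The gene was below the filter on low counts in the fit of D4H8 alone and entered this fit largely through D6 libraries. The adjusted p ranged from 0.0112 to 0.146 over 22 alternatives and was under 0.05 in 7 of them.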

How the results depend on the processing

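Of 1215 alternative values of the receptors' log2 fold changes, 1135 kept their direction and their side of the threshold, 45 lost a call, 10 gained one and 25 changed sign. The number of receptors called was within 1.5 times its value under all alternatives for the untreated comparisons. With GSKJ4 at D4H8 it was 2, and 0 to 2 when 1 library was left out. At D5 it was 0, and 1 with no filter. At D6 it was 0, and 2 with the replicate block. For D5 minus D4H8 it was 0, with 1 by DESeq2, 2 with no filter, 1 with the replicate block and 0 to 1 without 1 library. For D6 minus D4H8 it was 1, with 0 by DESeq2 (which gave Gfra2 no adjusted p), 2 with no filter, 0 with at least 10 counts in every library and 0 to 1 without 1 library. The replicate block changed no other call of a receptor. Why these counts moved was not tested.

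Leaving out 1 library at a time, the sign turned for Ntrk2 (-0.34 to 0.31) and Gfra3 (-0.01 to 0.33) from D4 to D4H8, and for Gfra1 from D5 to D6 (-0.04 to 0.39). With GSKJ4 it turned for Gfra3 at D4H8 (-0.16 to 0.16, and 0.00 with upper-quartile scaling), for Gfra1 (-0.44 to 0.12), Met (-0.59 to 0.01) and Lifr (-0.39 to 0.14) at D5, and at D6 for Ngfr (-0.21 to 0.04), Ntrk2 (-0.44 to 0.07), Gfra1 (-0.06 to 0.28), Gfra3 (-0.02 to 0.70) and Lifr (-0.04 to 0.08). For Gfra2, D6 minus D5, values were -0.38 to 0.60. Of 63 group means in FPKM, 62 moved by less than 1 SD after TMM scaling. Gfra2 is limited by its depth throughout.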
